A study of Mus musculus with 30 samples.

Results

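The comparison described here is that of HFD with CD in male mice, both given vehicle. Its members are the 12 colon libraries titled HFD M or CD M, 6 of each, out of 30 libraries in 5 groups. All mice were C57BL/6J and were put on their diet at 5 to 6 weeks of age. The CD males received a diet with 10% and the HFD males a diet with 60% of the energy from fat for 13 weeks. Both groups were injected i.p. with vehicle 9 times over the last 3 weeks, as the control of an estradiol (E2) treatment that neither group received. Each mouse gave 1 library from the whole tissue, so that epithelium, stroma, muscle and immune cells were measured together, and fewer cells of a type and less RNA per cell cannot be told apart. The question was which genes of the male colon respond to the diet.

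The colon absorbs water and sodium across an epithelium that is renewed from stem cells at the base of the crypts. Its absorptive cells burn fatty acids in the mitochondria, and dietary fat raises transcription through fatty acid receptors of the PPAR family. Most cells of the gut also carry a circadian clock, in which Arntl (Bmal1) with Clock or Npas2 switches on the Per, Cry, Nr1d and Ciart genes, whose products switch off the activators, and in which proteins such as Tef and Dbp pass the rhythm on to other genes.

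The total counts ranged from 8667177 to 14926918 over the 12 libraries, and mitochondrial genes took from 27.8% to 38% of them. Of 9 Hox genes of the distal gut 8 had counts high enough to be tested, with a summed level of 245 to 312 TPM in CD males and 261 to 342 TPM in HFD males. Replicates 2 and 4 of the HFD males stood apart by genes of stratified squamous epithelium, a tissue of the anal canal and skin. The mean log2 CPM of these genes was 5.49 and 2.96 above the CD median in these replicates and between -0.07 and 0.91 relative to it in the other 10 libraries. Genes of B cells and follicles were highest in replicate 6 of the HFD males (2.64 above the CD median) and replicate 1 of the CD males (2.16 above it). Values per animal are given in CPM (counts scaled to the library size after TMM), and levels of different genes are compared in TPM, which corrects for gene length.

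Of 14991 genes tested with edgeR, 434 (2.9%) passed the threshold, set at an unadjusted p below 0.05 and a difference of more than 0.4 on the log2 scale, up or down. Of these, 188 (1.25% of those tested) were higher and 246 (1.64%) lower on HFD. The median change was 0.58 on the log2 scale among the former and -0.55 among the latter. Without the minimum fold change, 904 genes (6.03%) had an unadjusted p under 0.05, where 749.6 would be expected at that level from the number of tests. After the Benjamini-Hochberg adjustment 0 genes remained (lowest adjusted p = 0.0843), whereas DESeq2 gave 26 (0.0935%). Rose and fell are therefore used for the unadjusted threshold, and each gene named has an adjusted p of 0.0843 or more. Of the 434 genes, 147 were past the threshold in each of the 12 fits that left out 1 library, 396 with DESeq2, and 280 without replicates 2 and 4 of the HFD males. With the mean level of smooth muscle genes as a covariate (the smooth muscle covariate) 171 of them were past it, and 433 kept their direction in every alternative fit, the exception being Dmkn. The split of 43.3% higher moved to 53.7% with DESeq2. The gene lists used below were drawn up with results on these animals known. Passing members of the matrix, G1, replication, endothelium and hypoxia lists include genes the study gave as changed by the diet in males. Counts in these lists, set beside the share over all genes, are therefore no independent evidence.

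**Figure D1:**
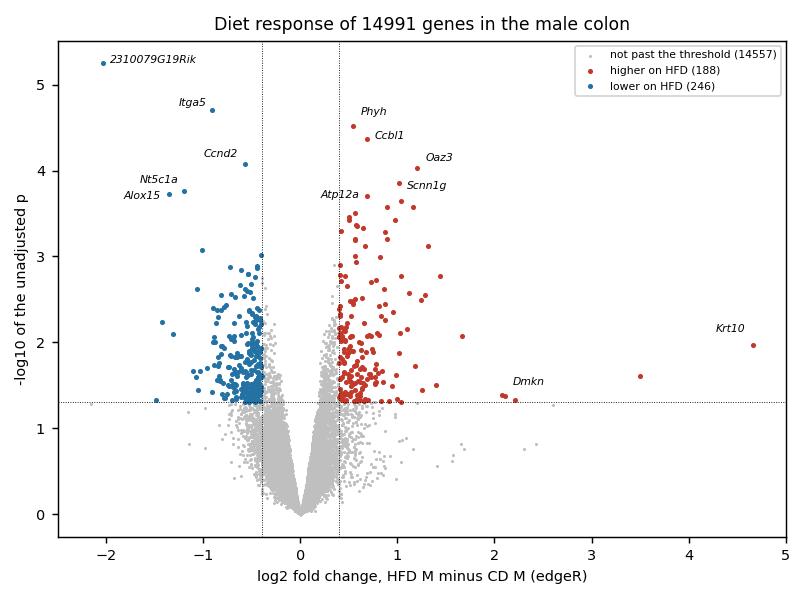
Unadjusted p (as -log10, y axis) against the log2 fold change of HFD M minus CD M (x axis) for the 14991 genes tested. Dotted lines mark a p of 0.05 and a difference of 0.4 on the log2 scale on each side, and the 188 genes past both on the right (red) and 246 on the left (blue) are the ones counted as changed.

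In CPM, the 6 HFD males and the 6 CD males did not overlap for 57 genes (0.38% of those tested), of which 30 were higher and 27 lower on HFD. For 29 of them, 16 higher and 13 lower, the threshold was passed as well and the level averaged at least 1 TPM in either group. The strongest evidence for a rise among genes of ion transport was that of Scnn1g (ENSMUSG00000000216, GRCm38 chromosome 7, 121734479 to 121768475, plus strand), which encodes the gamma subunit of the epithelial sodium channel. Its level in CD males was 20.8 at the lowest, 32.6 at the median and 34.9 CPM at the highest, and in HFD males 37.6, 55.7 and 98.3 CPM. Every HFD male was above every CD male, and the log2 fold change was 1.02 (standard error 0.20, unadjusted p = 0.000138, adjusted p = 0.295). Atp12a, the proton-potassium pump of the colon (chromosome 14, 56365068 to 56388551), ranged from 303 to 427 CPM with a median of 399 in CD males. It ranged from 463 to 797 CPM with a median of 588 in HFD males, again without overlap (log2 fold change 0.69, standard error 0.14, unadjusted p = 0.000197). Both genes were past the threshold in all 12 fits without 1 library. Their exact two-sided permutation p was 0.00216, the smallest that 6 animals against 6 can give. Any gene without overlap has this value, so it adds no evidence to the lack of overlap.

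Of the list of colonocyte transport genes, 4 of 23 tested rose and 1 fell, against 2.9% over all genes, while the median change of the list was 0.04, next to -0.01 over all genes. Scnn1b, the beta subunit of the sodium channel, had a lowest, median and highest level of 21.8, 25.3 and 30.2 CPM in CD males and 26.7, 30 and 70.2 CPM in HFD males. The ranges overlapped (log2 fold change 0.51, standard error 0.21, unadjusted p = 0.0284), and the call was lost when CD replicate 1, 3 or 6 or HFD replicate 5 was left out, with a fold change of 0.21 at the lowest. The alpha subunit gene Scnn1a did not pass (log2 fold change -0.12, standard error 0.22, unadjusted p = 0.586). Compared per length, the medians of Scnn1a, Scnn1b and Scnn1g were 19.2, 13.5 and 13.6 TPM in CD males and 16.8, 17.7 and 25.9 TPM in HFD males, so that the gamma subunit was about level with the beta subunit on CD and the most abundant of the 3 on HFD. Sgk1, a kinase that is induced by aldosterone and keeps the channel at the cell surface, ranged from 32.5 to 86.4 CPM (median 60.5) in CD males and from 40.9 to 139 CPM (median 117) in HFD males. It rose by 0.77 on the log2 scale (standard error 0.29, unadjusted p = 0.0204), with 4 of 6 HFD males above all CD males, and its call was lost without replicate 1 of the HFD males. Of the carbonic anhydrases, Car2 rose (log2 fold change 0.45, standard error 0.17, unadjusted p = 0.0176) and Car1 fell (-1.05, standard error 0.45, unadjusted p = 0.0364), and each overlapped between the diets. Car4 was lower but just short of the fold change minimum (-0.395, standard error 0.125, unadjusted p = 0.00591) and so did not pass. Car2 lost its call without replicate 1 of the HFD males (0.27), and Car1 was past the threshold in 4 of the 12 fits without 1 library (-1.31 to -0.70).

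Phyh, Ccbl1 and Slc7a9 were among the other genes that were higher in every HFD male. Phyh (chromosome 2, 4919019 to 4938730), a peroxisomal enzyme of the oxidation of branched fatty acids, had a lowest, median and highest level of 51.1, 52.3 and 61.0 CPM in CD males and of 66.4, 76.8 and 93.6 CPM in HFD males. Its log2 fold change of 0.54 had one of the smallest standard errors, 0.10 (unadjusted p = 2.99e-05, adjusted p = 0.149). Ccbl1, an aminotransferase that makes kynurenic acid from kynurenine, ranged from 13.5 to 18.5 CPM (median 14.8) in CD males and from 19.5 to 30.3 CPM (median 24.1) in HFD males (log2 fold change 0.69, standard error 0.13, unadjusted p = 4.33e-05, adjusted p = 0.162). The cystine and basic amino acid transporter Slc7a9 rose by 0.82 on the log2 scale (standard error 0.21), from a median of 3.35 to one of 6.5 CPM. Cyp2c69 rose by 1.16 (standard error 0.25), but it had between 6 and 20 counts per CD male and 20 to 32 per HFD male, and reads could not be assigned with certainty between it and its near-identical neighbour Cyp2c68. Other genes of this kind among the 12 largest rises were Oaz3 (1.21, an ornithine decarboxylase antizyme), Hes2 (0.97), Zfp14 (0.65), Lipt1 (0.64), Eml6 (0.58) and Tef (0.57). Oaz3 had only 9 to 27 counts per library, and Eml6 and Lipt1 lie over other expressed genes, whose reads are not told apart where the counting did not use strand, which the sources used here do not state. The same holds below for Ciart, Usp2, Dbp, Nr1d1, Ccnd1, Col18a1, Nr2c2ap and Esr2.

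**Figure D2:**
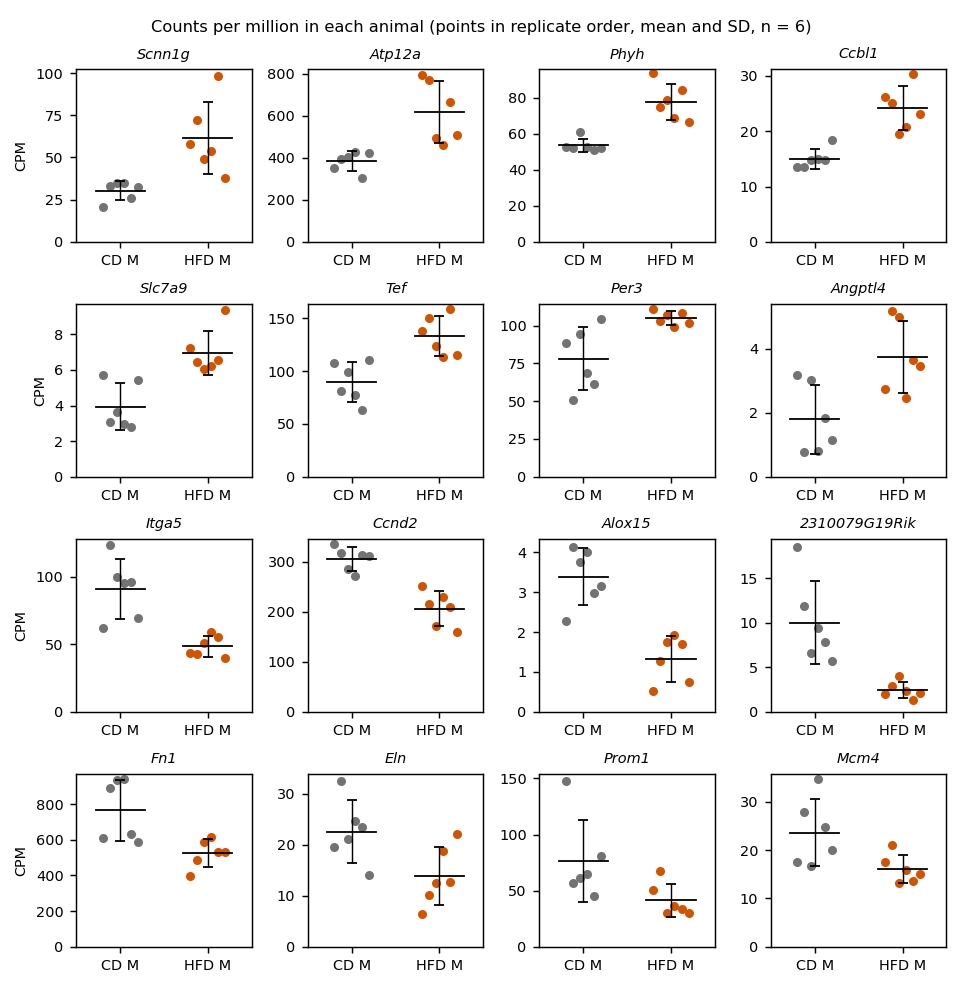
Level of 16 genes in each animal in CPM (y axis, from 0), with 6 CD males (grey) and 6 HFD males (orange) per gene, the mean as a bar and the SD as whiskers. Scnn1g, Atp12a, Phyh, Ccbl1, Slc7a9 and Tef were higher and Itga5, Ccnd2, Alox15 and 2310079G19Rik lower in every HFD male, and the other 6 genes overlapped between the diets.

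Genes of fatty acid oxidation and ketogenesis were mostly higher on HFD by small amounts. Of 26 tested members, 23 had a log2 fold change above 0 and 8 had an unadjusted p under 0.05, all of them higher (3.18% of all genes had such a p and were higher), but 2 passed the threshold (2.9% of all genes). The median of the list was 0.20, and it ranged from 0.11 with the smooth muscle covariate to 0.28 without CD replicate 1. The 8 members with an unadjusted p under 0.05 became 16 without CD replicate 1 and 2 without CD replicate 4. Angptl4, a secreted inhibitor of lipoprotein lipase and a PPAR target, rose from a lowest, median and highest level of 0.771, 1.49 and 3.19 CPM to one of 2.47, 3.56 and 5.16 CPM. The ranges overlapped, and the log2 fold change was 1.03 (standard error 0.34, unadjusted p = 0.00772), past the threshold in all 12 fits without 1 library. Acot1, a cytosolic acyl-CoA thioesterase, rose by 0.72 (standard error 0.29, unadjusted p = 0.0235) at no more than 1.95 CPM, and its counts may be shared with the near-identical Acot2. It lost its call without replicate 2 or 4 of the CD males or replicate 2 or 5 of the HFD males (0.56 at the lowest). Cpt1a, which carries fatty acids into the mitochondria, had a log2 fold change of 0.22 (standard error 0.09, unadjusted p = 0.0306), with medians of 182 CPM in CD males and 216 CPM in HFD males. The lipid droplet gene Plin2 had 0.32 (standard error 0.14, unadjusted p = 0.0336). Both genes stayed below the fold change minimum and so did not pass.

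Of 23 subunits of the respiratory chain encoded in the nucleus, 21 had a log2 fold change above 0, with a median of 0.18, and 0 passed the threshold in edgeR (2.9% of all genes passed). An unadjusted p under 0.05 was found for 1 of them, and DESeq2 called 0 at the threshold. With the smooth muscle covariate, the median was 0.03. Of 25 genes of fatty acid and cholesterol synthesis, 1 passed (4%, against 2.9% over all genes), and the median was 0.02. The gene that passed was the elongase Elovl6, which rose (log2 fold change 0.49, standard error 0.18, unadjusted p = 0.0132) and lost its call without replicate 1 of the HFD males (0.32). Of 16 glycolytic genes 0 passed (1 with an unadjusted p under 0.05). Of 12 genes of gluconeogenesis and glycogen 1 fell (1.64% over all genes), the kinase gene Stk11 (-0.42, standard error 0.18, unadjusted p = 0.0296, past the threshold in 7 of the 12 fits without 1 library). Of 25 antioxidant and glutathione genes, 2 rose (1.25% over all genes). Gsto1, a glutathione transferase, had medians of 146 CPM in CD males and 191 CPM in HFD males (log2 fold change 0.45, standard error 0.17, unadjusted p = 0.0171), and its highest level of 360 CPM was in replicate 2 of the HFD males, without which the fold change was 0.24 and the call was lost. Prdx1, a peroxiredoxin, had 0.41 (standard error 0.19, unadjusted p = 0.0442) and was past the threshold in 5 of the 12 fits.

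**Figure D3:**
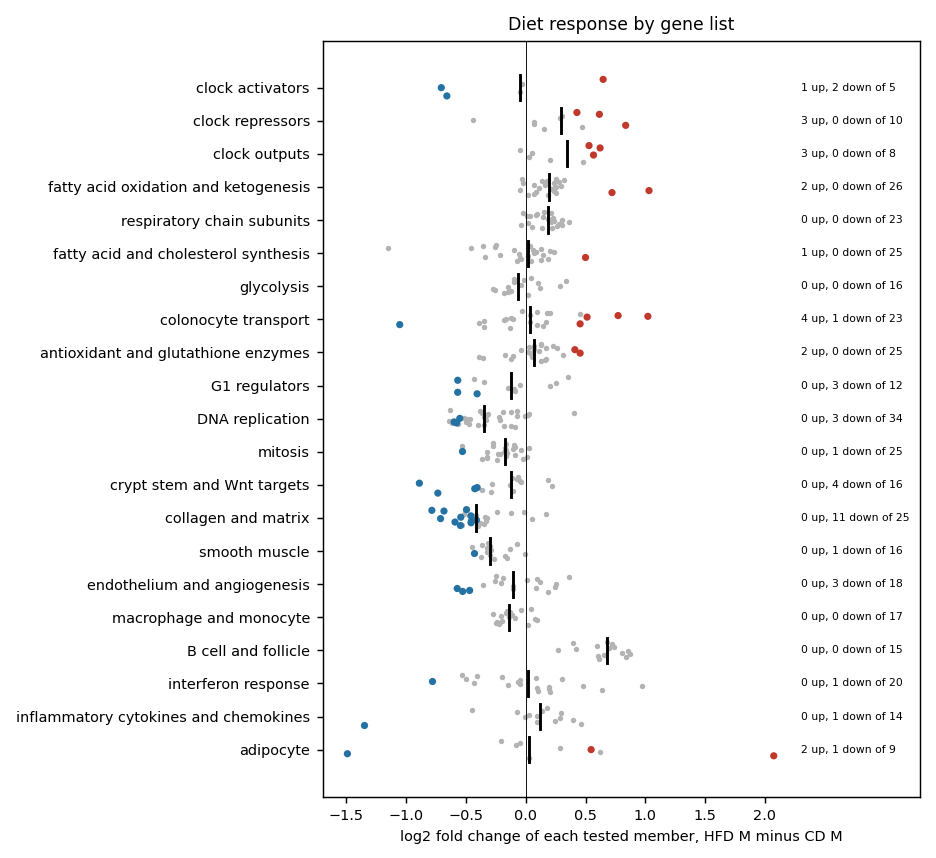
Log2 fold change of HFD M minus CD M for each tested member of 21 gene lists (x axis), with the list's median as a black bar, genes past the threshold in red (higher) or blue (lower) and the others in grey. Collagen and matrix genes lay to the left, with 11 of 25 lower and 0 higher, whereas clock repressors and outputs lay to the right, with 6 of 18 higher.

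The clock genes were split by their role. Promoter sequence is shown for 3 clock genes that rose, since clock and output factors bind known short motifs, namely the E-box CACGTG (Arntl with Clock or Npas2) and the D-box TTATGTAA (Tef and its relatives). Each window is a stretch of 80 bases upstream of the transcript start, written in the direction of the gene, from RefSeq on GRCm38.p6, with the motif in capitals. Counted from the start, the windows run from -116 to -37 for Ciart, from -218 to -139 for Per3 and from -164 to -85 for Tef.
Ciart (chr3:95882265-95882344, minus strand): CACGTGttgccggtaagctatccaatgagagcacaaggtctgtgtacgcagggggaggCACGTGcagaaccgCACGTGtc
Per3 (chr4:151044804-151044883, minus strand): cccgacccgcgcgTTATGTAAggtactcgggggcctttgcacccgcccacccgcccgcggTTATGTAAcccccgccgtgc
Tef (chr15:81802509-81802588, plus strand): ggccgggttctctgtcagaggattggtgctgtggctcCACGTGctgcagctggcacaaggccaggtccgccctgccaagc
These windows held 3 E-boxes for Ciart, 2 D-boxes for Per3 and 1 E-box for Tef. Of 32851 promoters of 250 bases before and 50 after the start, 7.15% held CACGTG and 0.938% held TTATGTAA on either strand. An entry was found for 6 of the clock genes that passed the threshold, and not for Per2 or Wee1. Another motif, the ROR element TAGGTCA of the Ror and Nr1d receptors (2.61% of promoters), was found 31 bases after the second start of Arntl. None of the 3 motifs was found for Npas2 or Usp2.

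Of the 5 clock activators tested, Arntl and Npas2 fell, where 1.64% of all genes fell. Arntl had a lowest, median and highest level of 12.5, 26.9 and 34.8 CPM in CD males and of 8.09, 17.2 and 21.9 CPM in HFD males. All 6 HFD males were below the CD median, but the ranges overlapped (log2 fold change -0.66, standard error 0.28, unadjusted p = 0.0318, exact permutation p = 0.0866). Npas2 had 15.1, 17.8 and 36.4 CPM in CD males and 7.21, 11.9 and 21.2 CPM in HFD males (-0.71, standard error 0.28, unadjusted p = 0.0233). Neither passed with squamous genes as the covariate (-0.48 and -0.63), and both calls were lost in fits without single libraries. Arntl lost its call when CD replicate 2, 4 or 5 or HFD replicate 1, 2 or 5 was left out (-0.80 to -0.53 over the fits), and Npas2 without replicate 2 or 5 of the CD males or 1 of the HFD males (-0.90 to -0.50). Clock, the other partner of Arntl, had a log2 fold change of -0.05 (standard error 0.09, unadjusted p = 0.574). In TPM it was more abundant than Arntl and Npas2, with medians of 62.8 in CD males and 62.9 in HFD males, but it lies over an expressed gene.

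Among 10 clock repressors, 3 rose and 0 fell (1.25% of all genes rose), with 9 of 10 above 0 and a median of 0.29, and 1 rose without CD replicate 4 or 5. Ciart, a repressor of the Arntl complex, had 2.50, 3.87 and 5.64 CPM in CD males and 4.31, 5.55 and 11.2 CPM in HFD males (log2 fold change 0.84, standard error 0.26, unadjusted p = 0.00491), with every HFD male above the CD median. Per3 had 51.0, 78.5 and 104 CPM in CD males and 98.9, 105 and 111 CPM in HFD males. Its HFD males lay close together at the upper end of the CD range (0.43, standard error 0.14, unadjusted p = 0.00848), and its call was lost without replicate 2, 4 or 5 of the CD males (0.33 at the lowest). Per3 lies over the expressed gene Camta1. Per2 rose by 0.62 (standard error 0.27, unadjusted p = 0.0393) and was past the threshold in 5 of the 12 fits (0.44 to 0.76). The other members did not pass. Per1 had a log2 fold change of 0.30 (standard error 0.24), Cry1 one of 0.07 (standard error 0.20), Nr1d1 one of -0.44 (standard error 0.28) and Nr1d2 one of 0.29 (standard error 0.13, unadjusted p = 0.0361). Nr1d1 was at 21.4 CPM in replicate 1 of the HFD males, whereas its lowest level in a CD male was 77.2 CPM.

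Of 8 clock outputs, 3 rose (1.25% over all genes) and 0 fell, with a median of 0.34. Tef, a transcription factor that binds the D-box, had 63.5, 90.0 and 111 CPM in CD males and 113, 131 and 158 CPM in HFD males, without overlap (log2 fold change 0.57, standard error 0.13, unadjusted p = 0.000619). Its exact permutation p of 0.00216 is that of any gene without overlap. Usp2, a deubiquitinase, rose by 0.62 (standard error 0.22, unadjusted p = 0.0124) and was past the threshold in all 12 fits. Wee1, the kinase that holds cells before mitosis, rose by 0.53 (standard error 0.18, unadjusted p = 0.00855), with 4 of 6 HFD males above all CD males, and lost its call without replicate 1 of the HFD males (0.40). Dbp, the relative of Tef, had a similar size of change that did not pass (0.48, standard error 0.23, unadjusted p = 0.0573). With the smooth muscle covariate, 1 of the 8 outputs (Tef) and 2 of the 10 repressors passed, and Arntl and Npas2 did not (-0.36 and -0.46). According to the study, the mice were killed at a single time of day. A shift in phase and a change in level cannot be told apart in such samples.

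Most genes of cell division had a log2 fold change below 0, which for replication and mitosis genes varied with single libraries. Ccnd2 (chromosome 6, 127125162 to 127152193), the cyclin D2 gene, had a lowest, median and highest level of 271, 313 and 336 CPM in CD males and of 160, 212 and 251 CPM in HFD males. The groups did not overlap (log2 fold change -0.57, standard error 0.11, unadjusted p = 8.35e-05, adjusted p = 0.233), and the fold change stayed between -0.63 and -0.51 when any 1 library was left out. The cyclin D1 gene Ccnd1 had 38.7, 41.5 and 45.7 CPM in CD males and 26.9, 30.8 and 39.7 CPM in HFD males, 5 of which were below every CD male (-0.41, standard error 0.10, unadjusted p = 0.000967). Its fold change lay so near the minimum that 4 of the 12 fits, those without replicate 2 or 5 of the CD males or 1 or 3 of the HFD males, no longer called it (-0.48 to -0.37). Of the 12 G1 regulators 3 fell (1.64% of all genes fell) and 0 rose, the last being the activin subunit Inhba (-0.57, standard error 0.25, unadjusted p = 0.0363), called in 4 of the 12 fits. Myc, a driver of cell growth, did not pass (-0.43, standard error 0.21, unadjusted p = 0.0558).

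Of 34 genes of DNA replication, 31 had a log2 fold change below 0, with a median of -0.35, and 3 fell (1.64% over all genes), namely Mcm4, Dtl and E2f7. The mean log2 CPM of the list was 0.88 above the CD median in replicate 4 of the CD males. It was at most 0.37 above that median in any other library. The summed level of the list had a median of 206 TPM in CD males and 219 TPM in HFD males. Mcm4, a subunit of the replicative helicase, had 16.8, 22.4 and 34.6 CPM in CD males and 13.1, 15.5 and 21.0 CPM in HFD males (-0.55, standard error 0.18, unadjusted p = 0.00653) and was called in all 12 fits. The number of the list that fell varied with single libraries, from 1 without replicate 2 or 4 of the CD males or 1, 3 or 5 of the HFD males to 10 without replicate 1 of the CD males or 2 of the HFD males. It was 8 with squamous and 13 with adipocyte genes as the covariate. Of 25 mitosis genes, 23 were below 0, with a median of -0.18, and 1 fell (against the same 1.64%), Incenp of the chromosomal passenger complex (-0.53, standard error 0.19, unadjusted p = 0.0125). Without replicate 4 of the CD males, which had the highest replication and mitosis scores, that median was -0.0002 and Incenp was not called (-0.36). The proliferation marker Mki67 differed by -0.18 (standard error 0.26, unadjusted p = 0.510) and by 0.11 without replicate 4 of the CD males. Its median was 42.3 TPM in CD males and 50.1 TPM in HFD males.

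Of 16 genes of crypt stem cells and Wnt targets, 4 fell (1.64% over all genes) and 0 rose, with a median of -0.13. Ascl2, the factor of the stem cell state, had 1.33, 2.47 and 3.56 CPM in CD males and 1.17, 1.43 and 2.0 CPM in HFD males (log2 fold change -0.74, standard error 0.25, unadjusted p = 0.00844). Prom1 had 45.4, 63.4 and 148 CPM in CD males and 29.8, 34.9 and 67.1 CPM in HFD males, 4 of which were below every CD male (-0.89, standard error 0.29, unadjusted p = 0.00860). Both overlapped and were called in all 12 fits. The receptors Ephb2 and Ephb3, which position cells along the crypt, fell by 0.43 and 0.41 on the log2 scale, and each was called in 7 of the 12 fits. Lgr5, the stem cell marker, did not pass (0.22, standard error 0.16, unadjusted p = 0.189).

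Among the genes lower in every HFD male, the lowest p-value was that of 2310079G19Rik (ENSMUSG00000045331, chromosome 16, 88626786 to 88627666, minus strand), for which the files give no further name. It had 5.74, 8.63 and 18.5 CPM in CD males and 1.3, 2.2 and 4.02 CPM in HFD males (log2 fold change -2.04, standard error 0.31, unadjusted p = 5.62e-06, adjusted p = 0.0843). The counts behind these values were 60 to 261 per CD male and 16 to 46 per HFD male. Nt5c1a, a cytosolic nucleotidase that forms adenosine, fell by 1.20 on the log2 scale (standard error 0.25, unadjusted p = 0.000174), from a median of 6.40 to one of 2.92 CPM. Etv4, an ETS factor downstream of growth factor signals, fell by 1.01 (standard error 0.25, unadjusted p = 0.000841), from a median of 3.37 to one of 1.88 CPM. Smaller decreases without overlap were found for Aldh3b1 (-0.56), Angpt2 (-0.53), Jph2 (-0.51), Nr2c2ap (-0.48), Socs2 (-0.45) and the collagen-modifying enzyme P3h1 (-0.41). Of the 24 genes named for their size without overlap in CPM, 11 did not overlap in TPM either.

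Of the 39 lists, that of the extracellular matrix held the most decreases. Of 25 genes of collagens and matrix, 11 fell (1.64% over all genes) and 0 rose, 15 had an unadjusted p under 0.05 and were lower (2.85% of all genes), and 23 were below 0, with a median of -0.41. Of those that fell, Col4a1, Col4a2, Col8a1, Col18a1, Fn1, Lamc1, Tnc, Spon2 and Thbs1 were given by the study as changed by the diet in males. Since these are the same animals, the count is no independent evidence. The fibronectin gene Fn1 had a lowest, median and highest level of 588, 762 and 941 CPM in CD males and of 398, 532 and 614 CPM in HFD males. Of the HFD males 5 were below every CD male, and the log2 fold change was -0.54 (standard error 0.14, unadjusted p = 0.00162). Itga5 (chromosome 15, 103344289 to 103366763), which encodes the alpha chain of the fibronectin receptor and is not in the list, had 61.9, 95.7 and 124 CPM in CD males and 39.7, 47.0 and 58.9 CPM in HFD males. The groups did not overlap (-0.91, standard error 0.15, unadjusted p = 1.99e-05, adjusted p = 0.149). Thbs1, a matrix protein that activates TGF-beta, had 41.4, 60.3 and 119 CPM in CD males and 34.3, 43.1 and 52.9 CPM in HFD males (-0.79, standard error 0.23, unadjusted p = 0.00390). Eln, the elastin gene, had 14.1, 22.3 and 32.5 CPM in CD males and 6.47, 12.6 and 22.1 CPM in HFD males (-0.71, standard error 0.26, unadjusted p = 0.0145). Fn1, Thbs1, Eln, Spon2 (-0.68) and Col18a1 (-0.55) were called in all 12 fits, Tnc (-0.50) in all but that without replicate 2 of the CD males (-0.38), and Lamc1 (-0.46) in all but that without replicate 1 of the HFD males (-0.40). The basement membrane collagens Col4a1 (-0.46) and Col4a2 (-0.59), which overlap each other, and Col5a1 (-0.46) were called in 5 or 6 of the 12, and Col8a1 (-0.41) in 8. Col1a1, the main fibrillar collagen, did not pass (-0.54, standard error 0.31, unadjusted p = 0.109). It ranged from 75.5 to 113 CPM (median 88.2) in CD males and from 17.8 to 108 CPM (median 63.1) in HFD males.

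Smooth muscle genes were below 0 as well. Relative to the CD median, replicate 1 of the HFD males had the lowest muscle score (-0.77) and the lowest matrix score (-1.02). The corresponding values in replicate 1 of the CD males were -0.65 and -0.24. Whether less muscle in a sample lowered its matrix genes was not tested. All 16 were below 0, with a median of -0.30, a summed level of 5520 to 9050 TPM (median 7400) in CD males and 5470 to 8500 TPM (median 5640) in HFD males, and 1 of 16 fell, Lmod1 (-0.43, standard error 0.17, unadjusted p = 0.0220). It was called in 6 of the 12 fits, and 5 members fell without CD replicate 1 and 7 without HFD replicate 4. Acta2 did not pass (-0.26, standard error 0.17, unadjusted p = 0.138). With the smooth muscle covariate, the matrix median was -0.27 and 2 of its 25 genes fell, while Fn1 (-0.34), Eln (-0.51) and Tnc (-0.26) no longer passed and Itga5 did (-0.66, unadjusted p = 1.33e-05). The 11 matrix genes that fell became 6 when CD replicate 2 was left out, 7 for CD replicate 4 and 8 for HFD replicate 1, whose matrix score was the lowest, and 8 without replicates 2 and 4 of the HFD males together. Of 18 genes of endothelium and angiogenesis, 3 fell (1.64% over all genes) and 0 rose, namely Angpt2, a vessel-destabilising ligand, Cdh13 (-0.47) and the pericyte gene Cspg4 (-0.57), with a median of -0.11. Angpt2 had 4.03, 4.67 and 6.02 CPM in CD males and 2.0, 3.54 and 3.97 CPM in HFD males, without overlap (-0.53, standard error 0.19, unadjusted p = 0.0132), and lies within the expressed gene Mcph1. Cspg4 was called in 4 of the 12 fits. Without CD replicate 3, 1 of the 18 fell, and with the smooth muscle covariate 0 did, Angpt2 having an unadjusted p of 0.0501.

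**Figure D4:**
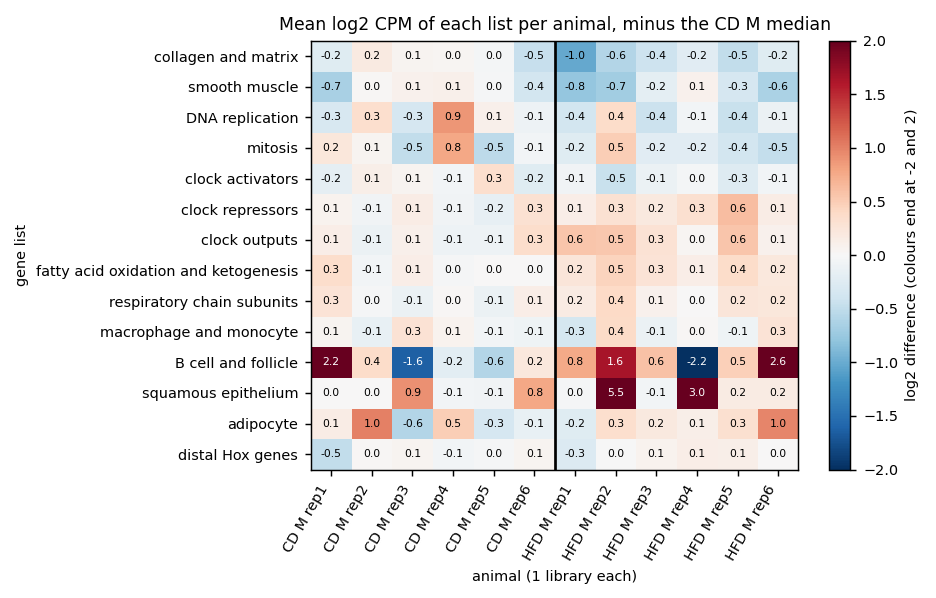
Mean log2 CPM of the genes of 14 lists in each animal (columns), minus the median of the 6 CD males, with red above and blue below that median. Matrix scores of the HFD males lay between -1.02 and -0.23 and those of the CD males between -0.46 and 0.18, replicates 2 and 4 of the HFD males stood out in squamous epithelium, and B cell scores spread from -1.63 to 2.16 in CD males and from -2.17 to 2.64 in HFD males.

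Immune genes gave few changes. Over all genes 1.25% rose and 1.64% fell. Of 14 inflammatory cytokine, chemokine and lipid mediator genes, 1 fell, Alox15, the 12/15-lipoxygenase of resident macrophages and eosinophils. It had a lowest, median and highest level of 2.27, 3.46 and 4.14 CPM in CD males and of 0.521, 1.48 and 1.92 CPM in HFD males, from 31 to 55 and 7 to 21 counts. The groups did not overlap (log2 fold change -1.35, standard error 0.28, unadjusted p = 0.000189, adjusted p = 0.295). Of 17 macrophage and monocyte genes, 0 passed in edgeR and 0 had an unadjusted p under 0.05, with a median of -0.14. The macrophage marker Adgre1 had medians of 11.1 CPM in CD males and 11.0 CPM in HFD males (0.02, standard error 0.18). All 15 B cell genes tested were above 0, with a median of 0.68, but 0 passed in edgeR and 0 had an unadjusted p under 0.05, and their summed level spread from 12.9 to 125 TPM in CD males and from 8.44 to 163 TPM in HFD males. Without replicate 1 of the CD males that median was 1.57 and 6 rose, and without replicate 6 of the HFD males it was 0.12 and 0 rose. Of 6 plasma cell genes 1 rose, Igkc (1.03, standard error 0.47, unadjusted p = 0.0490), in 3 of the 12 fits. Of 20 interferon response genes 1 fell, Oas2 (-0.79, standard error 0.36, unadjusted p = 0.0443), in 5 of the 12 fits. In the lists of MHC class II (9 tested), T cell (3), mast cell (4), antimicrobial (4) and enteric neuron and glia genes (15), 0 passed, and in each but the antimicrobial and the neuronal one, with 1 each, 0 had an unadjusted p under 0.05.

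The changes of squamous epithelium and adipocyte genes rested on few animals. Of 25 squamous genes 7 were tested and 3 rose (1.25% over all genes), namely Krt10, Sbsn and Dmkn. Krt10 had 0.482, 0.746 and 1.25 CPM in CD males and 0.735, 1.51 and 115 CPM in HFD males. Its log2 fold change of 4.67 (standard error 1.51, unadjusted p = 0.0108) was 1.53 at the lowest without 1 library and 0.54 (unadjusted p = 0.121) without replicates 2 and 4 of the HFD males. Krt5, a basal keratin that did not pass the filter, was at most 1.78 CPM in CD males and reached 28.9 CPM in an HFD male. Without these replicates Sbsn had 0.40 (unadjusted p = 0.149) and Dmkn -0.14 (unadjusted p = 0.677). Of 9 adipocyte genes tested 2 rose and 1 fell (1.25% and 1.64% over all genes). Fabp4, the lipid carrier of fat cells and vessels, rose from a median of 7.29 to one of 11.7 CPM (0.55, standard error 0.23, unadjusted p = 0.0307), in 6 of the 12 fits. Car3 rose by 2.07 (standard error 0.89, unadjusted p = 0.0409), with 165 CPM in 1 HFD male and a median of 15.9 CPM, and had 0.24 without replicates 2 and 4 of the HFD males. Cfd, the adipsin gene, fell by 1.49 (standard error 0.68, unadjusted p = 0.0476), in 4 of the 12 fits. Adipoq was listed at 0 to 1.83 CPM in CD males and 0.642 to 3.26 CPM in HFD males and was not tested.

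Further lists had 1 to 3 members past the threshold, where 1.25% of all genes rose and 1.64% fell. A list of 18 genes held hypoxia factors, hypoxia targets and genes that the study lists under response to hypoxia. Of these, Bnip3, a mitophagy receptor, rose (log2 fold change 0.52, standard error 0.16, unadjusted p = 0.00496, called in all 12 fits). Edn1, the endothelin 1 gene (-0.81, standard error 0.29, unadjusted p = 0.0136), and Actn4 (-0.41, standard error 0.16, unadjusted p = 0.0187) fell. Bnip3, Edn1 and Actn4 are all among the genes the study lists there for males. Of 12 enteroendocrine genes 1 rose, Insl5, a hormone of the distal colon (0.77, standard error 0.32, unadjusted p = 0.0303). It was at 2.11 CPM in replicate 4 and above every CD male in the other 5 HFD males, and was called in 7 of the 12 fits. A list of steroid receptors and enzymes, which also holds the complement gene C7, had 12 genes tested. In it the estrogen receptor gene Esr2 rose, from 2.66, 3.17 and 4.75 CPM in CD males to 4.12, 4.84 and 6.25 CPM in HFD males (0.51, standard error 0.18, unadjusted p = 0.0116, called in all 12 fits). The complement gene C7 fell (-0.48, standard error 0.22, unadjusted p = 0.0488), in 5 of the 12 fits. Of 13 genes of the ER stress and amino acid response 1 rose, Herpud1, which serves protein degradation at the ER (0.41, standard error 0.11, unadjusted p = 0.00164, in 8 of the 12 fits). In the lists of goblet mucus (11 tested), distal Hox (8) and immediate early genes (10), and in those of pancreatic acinar and red blood cells (1 each), 0 passed, and 1 of them, a goblet gene, had an unadjusted p under 0.05. Of 17 tested genes that the study named for the diet in males, 8 rose and 6 fell, which is no independent evidence since they were chosen on the same animals. Anxa1 (0.46, unadjusted p = 0.0957), Sod3 (-0.44, unadjusted p = 0.0839) and Gpx3 (-0.39, unadjusted p = 0.128) did not pass, and Arg1 was not tested. It was at 53.8 and 17.1 CPM in replicates 2 and 4 of the HFD males, those with squamous genes, at most 0.21 CPM in the other HFD males and at most 2.6 CPM in CD males.

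The diet effect in males was set against that in females by a test of the interaction in the 24 vehicle-treated libraries. Of 15800 genes, 818 (5.18%) passed the threshold in the interaction and 0 the adjusted one in edgeR, whereas DESeq2 gave 5 with adjusted p-values. Of the 39 lists the matrix list had the most of them, 15 of 25, and its median log2 fold change was -0.41 in males and 0.21 in females, where 5 of 25 rose and 1 fell (3.67% of all genes tested in females passed). Fn1 had -0.54 in males and 0.18 in females (interaction -0.72, standard error 0.22, unadjusted p = 0.00358), and Col1a1 had -0.54 and 0.78 (interaction -1.31, unadjusted p = 0.00877). Smooth muscle genes passed the interaction in 6 of 16 cases, with medians of -0.30 in males and 0.24 in females. Of the G1 regulators 5 of 12 passed it, among them Ccnd2 (-0.57 in males and 0.04 in females, interaction -0.60, unadjusted p = 0.00105) and Ccnd1 (-0.41 and 0.19, interaction -0.59, unadjusted p = 0.00174). Alox15 had the opposite sign in females (0.91, interaction -2.25, unadjusted p = 0.000173, adjusted p = 0.319).

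In the clock, Arntl (-0.66 in males and -1.09 in females) and Npas2 (-0.71 and -0.84) had the same sign in both sexes, and their interactions, 0.43 (unadjusted p = 0.287) and 0.14 (unadjusted p = 0.742), did not show a difference. The rises of Ciart (0.84 in males and 2.67 in females, interaction -1.83, unadjusted p = 0.000829) and Tef (0.57 and 1.38, interaction -0.81, unadjusted p = 0.0102) were smaller in males at this threshold. The log2 fold changes of Scnn1g were 1.02 and 0.96 ( interaction 0.07, standard error 0.42, unadjusted p = 0.877), and those of Angptl4 were 1.03 and 1.48 (interaction -0.44, unadjusted p = 0.409). Of the 26 fatty acid oxidation genes 0 passed the interaction at the unadjusted threshold in edgeR. In the males given E2 on HFD, which were compared with the same 6 HFD males and so share them with the diet comparison, the log2 fold change of E2 against vehicle was -1.25 for Scnn1g, -0.84 for Atp12a, 1.14 for Arntl, 1.09 for Eln, 0.41 for Itga5 and 0.09 for Ccnd2.

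**Figure D5:**
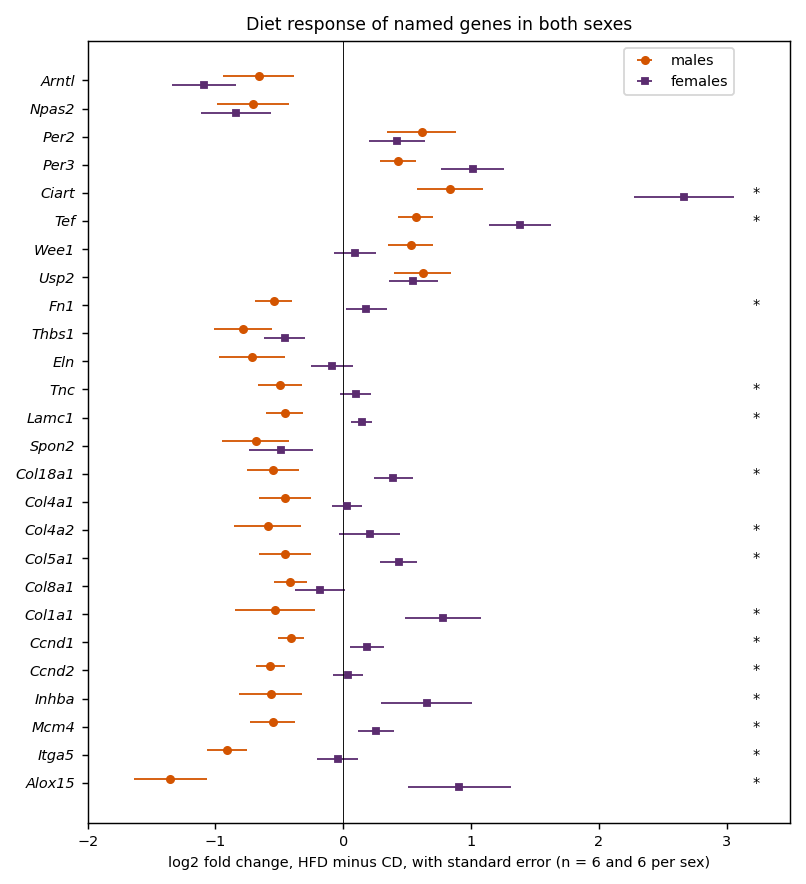
Log2 fold change of HFD minus CD with its standard error (x axis) for 26 genes in males (orange circles) and females (violet squares), with an asterisk where the interaction passed the unadjusted threshold. Clock genes such as Arntl and Npas2 lay on the same side in both sexes, whereas Fn1, Col5a1, Col1a1, Inhba and Alox15 lay left of 0 in males and right of it in females.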

How the data were processed

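RNA was extracted from the colon of each mouse and sequenced. The authors trimmed the reads with Trim Galore, aligned them with STAR to GRCm38 and counted them per gene with featureCounts, and the deposited table holds these raw counts for every library. The deposited TPM values were computed by the authors with StringTie, per gene length and sequencing depth. Whether the counting used strand, and the versions of these tools, are not given in the sources used here. The 12 libraries held 8667177 to 14926918 counts, and no pair of libraries of the same group agreed within counting noise.

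HFD M was compared with CD M in edgeR 4.0.16 (R 4.3.3) by the quasi-likelihood test on the counts, with filterByExpr, TMM normalization and robust dispersion, and p-values were adjusted by Benjamini-Hochberg over all genes. The study's threshold does not state whether p was adjusted and was read as unadjusted. The steps were tested on simulated data. CPM are TMM-scaled, with a prior count of 2 in list scores. The interaction was fitted to 24 libraries. Alternatives were DESeq2 1.42.0, other size factors and filters, cell type covariates and leaving out libraries. Exact two-sided permutation tests used log2 CPM.

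Genes were named when they passed the threshold, reached a mean of 1 TPM in either group and did not overlap between groups (the 12 largest changes in each direction), when they were among the 10 lowest p-values, or when they passed the threshold within a list, and genes the study named for the diet in males, and a few markers, were added. Of 646 different genes in 39 lists, 645 were matched by symbol. The members and lists were chosen with earlier results of these data known. Some items are not reported here.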

Additional observations from a re-analysis of the deposited data

Results flagged for a closer look

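In some groups of 6 males the highest or lowest animal lay apart from the others, with a gap to its nearest neighbour that took up more of the group's range than a 95% limit allows, which chance alone gives in about 1 in 20 groups. Both groups were looked at for the named genes and for the gene lists, so some of the animals below are to be expected from chance alone. The values below are that gap as a share of the range. Among the CD males, replicate 6 was high for Ccbl1 (0.653) and low for Lipt1 (0.755), replicate 3 was high for Phyh (0.819) and low for Ly6c2 (0.636), and replicate 5 was high for Nt5c1a (0.631). Ccbl1, Phyh and Nt5c1a did not overlap between the diets with these animals included.

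Among the HFD males, replicate 2 was high for Dmkn (0.736), Sbsn (0.69) and Gsto1 (0.681), replicate 5 for Scnn1b (0.75) and replicate 4 for Inhba (0.691). Replicate 4 was low for Insl5 (0.699) and Plin2 (0.757), and replicate 1 for Incenp (0.663) and Nr1d1 (0.631).

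Of the mean levels of gene lists, those of T cell (0.723) and red blood cell genes (0.645) were high and that of distal Hox genes (0.804) was low in replicate 1 of the CD males. In HFD males the list of clock repressors was high in replicate 5 (0.636), those of mitosis (0.733) and of inflammatory genes (0.669) were high in replicate 2, and that of distal Hox genes was low in replicate 1 (0.64).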

How the results depend on the processing

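The number of genes past the unadjusted threshold (434) was 1056 without a filter on low counts and 904 without a minimum fold change, and between 346 and 706 when 1 library was left out, the highest being without CD replicate 1. In the other alternatives it lay within 1.5 times of 434, from 339 with the smooth muscle covariate to 603 with DESeq2. The count of genes with an adjusted p under 0.05 (0 in edgeR) was 26 with DESeq2, 3 with all 30 libraries in the fit, 1 with the B cell and 4 with the adipocyte covariate, and 0 to 2 when 1 library was left out. Leaving out replicates 2 and 4 of the HFD males together, which was chosen after seeing the data, gave 1 such gene and 563 past the unadjusted threshold. For the interaction with sex (818), no filter gave 1543 genes, and its adjusted count (0) was 5 with DESeq2 and 1 without the filter. Of 81 called named genes, 55 had an exact permutation p under 0.05 in CPM, 46 in log2(TPM + 0.1) and 45 in log2(TPM + 1). The 24 genes named for their size without overlap have such a p in CPM by their selection.

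Replicate numbers are shared between the diets, but no label ties mice of 1 number to each other. The correlation of same-numbered libraries was above 0.1 for 5 numbers and -0.17 for replicate 2, and 4 of the 6 CD males correlated best with the HFD male of their own number. With the number as a replicate block 558 genes passed the unadjusted threshold and 2 the adjusted one, and the interaction had 1 adjusted call. In that fit the log2 fold change of Arntl was -0.64 (unadjusted p = 0.108) and the log2 fold change of Npas2 was -0.70 (unadjusted p = 0.0614), so neither was called.

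Changes of sign concerned genes that had not passed the threshold, apart from Dmkn. Acta2 had a log2 fold change of 0.0005, Gpx3 of 0.0105, Scnn1a of 0.1393 and Adgre1 of -0.2595 with the smooth muscle covariate. Adgre1 had -0.1155 with the B cell covariate, -0.0095 with the replicate block and -0.0982 to 0.112 without 1 library. Dmkn had -0.0688 with the squamous covariate and -0.1417 without replicates 2 and 4 of the HFD males. Without 1 library, Cry1 ranged from -0.1302 to 0.1812, Mki67 from -0.291 to 0.1073 and Scnn1a from -0.2635 to 0.0013. Of the other single-gene alternatives, 2142 kept direction and side of the threshold, 387 lost and 20 gained the call. The cause of these changes was not tested. Depth limits genes of few counts, such as Oaz3, Cyp2c69 and Alox15.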

Other observations

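Gene families outside the lists were looked at after their values had been seen, and are given as values without a test of the family. Of all genes tested 1.25% rose and 1.64% fell, and 7685 of 14991 were below 0. Iron handling genes included 3 that rose among 9 tested, with a median log2 fold change of 0.22. Slc40a1 (ferroportin, the iron exporter) had a lowest, median and highest level of 114, 179 and 228 CPM in CD males and of 206, 254 and 319 CPM in HFD males, 5 of which were above every CD male (log2 fold change 0.58, standard error 0.15, unadjusted p = 0.00115). Slc11a2 (DMT1, the iron importer) had 30.4, 37.6 and 58.6 CPM in CD males and 52.0, 59.0 and 129 CPM in HFD males (0.81, standard error 0.23, unadjusted p = 0.00373). Steap4, a ferrireductase, rose by 1.28 (standard error 0.35, unadjusted p = 0.00283) and by 0.75 without replicates 2 and 4 of the HFD males. The 3 genes were called in all 12 fits without 1 library. In females the log2 fold changes were -0.32 for Slc40a1, 0.06 for Slc11a2 and 0.51 for Steap4, and the interaction passed the unadjusted threshold for Slc40a1 (0.90, unadjusted p = 0.000795, adjusted p = 0.397).

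Of 67 genes of ribosomal RNA synthesis and processing, 60 were below 0, with a median of -0.21, and 10 fell. Rrp12 had 7.01, 9.33 and 13.1 CPM in CD males and 4.72, 5.67 and 7.79 CPM in HFD males, 5 of which were below every CD male (-0.73, standard error 0.19, unadjusted p = 0.00134). Gar1, a protein of the box H/ACA particles, fell by 0.81 (standard error 0.25, unadjusted p = 0.00423), and Nolc1 by 0.50, a call that was lost without replicate 5 of the CD males (-0.38). Of 6 carboxylesterase 2 genes 3 rose, with a median of 0.43, namely Ces2e (0.78), Ces2b (0.63) and Ces2a (0.50), which encode esterases of the intestine that split drugs and glycerides. Ces2b was called in 6 of the 12 fits, and Ces2a had 0.21 (unadjusted p = 0.0614) with the smooth muscle covariate. Of 5 Cyp2c genes, Cyp2c68 and Cyp2c69 rose and Cyp2c55 fell (-0.68, standard error 0.30, unadjusted p = 0.0382, called in 5 of the 12 fits).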
